A study of Flaveria bidentis and Flaveria robusta with 100 samples.

Results

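These are the 101 genes whose leaf transcript levels went through a large daily swing in Flaveria bidentis, a C4 plant, and a small one in Flaveria robusta, a C3 relative, under days of light and dark. The choice was made among 10467 of the 21869 listed Arabidopsis gene identifiers, those that averaged 5 RPM or more over all 50 time points, where RPM is the read number scaled to the same total in every library. For each species the levels of both light-dark days were averaged at each of 6 hours, and the ratio of the highest to the lowest average, each with 1 RPM added, had to be at least 4 in F. bidentis and under 2 in F. robusta. The light-dark values therefore chose the genes and are given below as a description without any test, while the ratios in constant light were not used. The 5 RPM minimum did use the constant light means, so levels there are not independent of the choice. The rule kept 0.965% of the 10467 genes. A ratio of at least 4 in F. bidentis was met by 926 genes, so these 101 are the part of that set with the flattest profiles in F. robusta, and the mirror rule, with the species exchanged, kept 88 genes (0.841%).

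C4 plants fix carbon first in mesophyll cells and release it again in bundle sheath cells, whereas C3 plants fix it directly in the mesophyll. Leaf transcript levels follow the time of day in both, driven by the circadian clock, by light itself and by the sugar and nitrogen status that light sets.

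Mature leaves of each species, for which the labels give no genotype, accession or transgene, were harvested every 4 h. The plants had spent 36 days in a greenhouse and 6 days in a chamber, where a lit period of 10 h was kept at 22 °C and a dark one of 14 h at 20 °C. Sampling covered 2 light-dark days (LD1 and LD2), then 2 days of constant light (LL1 and LL2) and ZT00 of the day after them (LL3). Hours are zeitgeber times (ZT), counted from lights on: in LD, ZT00, ZT04 and ZT08 were lit and ZT12, ZT16 and ZT20 were dark, so LL1 ZT00 to ZT08 came after a normal night and ZT12 of LL1 was the first hour point at which LD and LL differed in light. Each of the 25 time points per species has 2 biological replicates. The values are the authors' means of those replicates in steps of 0.5 RPM, so the spread between plants is unknown, and constant light always followed the light-dark days and cannot be told apart from plant age. RPM values are not corrected for transcript length, so levels are compared between species, hours and regimes for one gene and not between genes. Reads of both species were assigned to Arabidopsis identifiers. Whether a gene's reads matched equally well in both species was not tested.

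The leaf label held for the markers measured: 3 photosynthesis genes summed to between 14069.5 and 29449.5 RPM in F. bidentis in LD and between 29009 and 85016 RPM in F. robusta, and 2 seed storage genes were listed at 0 throughout. None of the 19 core clock genes that reached 5 RPM on average was among the 101, and 13 of those 19 had an LD ratio of at least 4 in F. bidentis together with at least 2 in F. robusta. Composition factors (trimmed mean of M values, TMM) stood apart from the rest at 4 time points of F. robusta in LL. These were LL2 ZT04, LL2 ZT08, LL2 ZT20 and LL3 ZT00, and calls of tests in LL are given with and without them. TMM factors of all 50 means lay between 0.812 and 1.36, and dividing by them before the rule is applied gives 100 genes, of which 48 are among the 101.

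**Figure D1:**
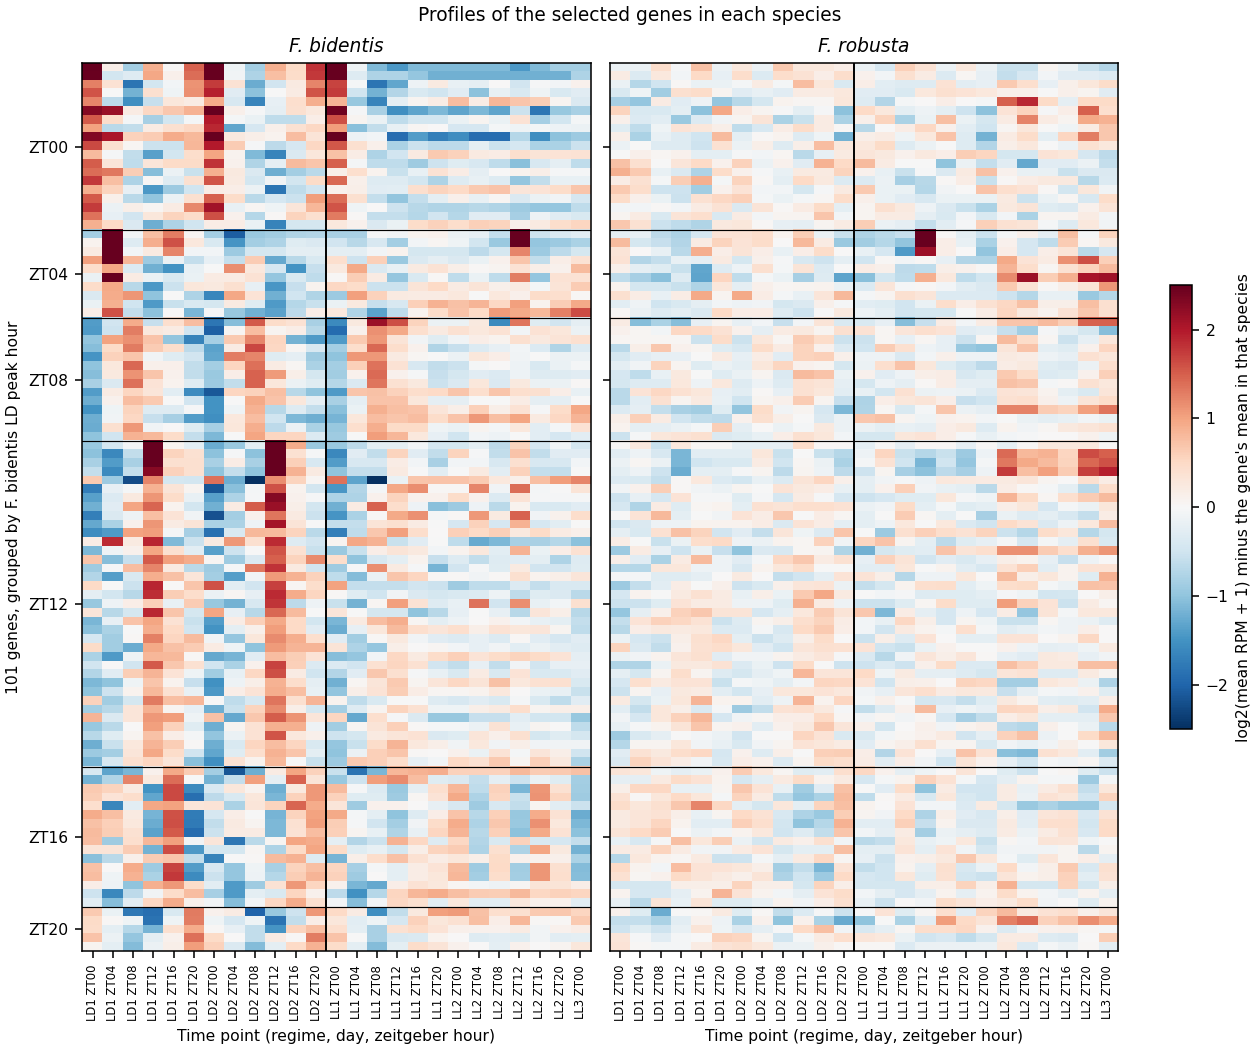
Colours show log2(mean RPM + 1) minus the gene's own mean in that species for the 101 genes (rows, grouped by the LD hour at which the F. bidentis average was highest) at 25 time points (columns; the vertical line separates LD from LL). The largest block, 37 genes, was highest at ZT12, and the F. bidentis colours pale after LL1 in most rows.

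The members differed from each other in hour and in how repeatable the pattern was. The F. bidentis average was highest at ZT12, the first dark hour point, in 37 of the 101 genes, at ZT00 in 19, at ZT16 in 16, at ZT08 in 14, at ZT04 in 10 and at ZT20 in 5. Over all 10467 genes ZT16 was the commonest peak, with 38.5% of genes against 15.8% of the members. ZT12 was the highest hour on both LD days in 33 members and in 18.9% of all 10467 genes. The share of the 926 genes that peaked at ZT12 is given below and was near that of the members. Counts at ZT00, ZT04, ZT08 and ZT20 stand without such a share and are a description only. The lowest average fell at ZT00 in 40 members, a count given as a description only. The peak hour was the same on LD1 and LD2 in 79 of 101 members, against 54.6% of all 10467 genes and 71.6% of the 926 genes with the F. bidentis ratio alone. A ratio of at least 4 on each LD day taken alone was met in F. bidentis by 64 members, and a ratio under 2 on each day in F. robusta by 29. Only 17 of the 101 met the whole rule on each LD day by itself, and 19 stayed in the set whichever one of the 24 LD means was left out.

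F. robusta profiles, which the rule required to be flat, lay at an intermediate level in most members. The wide F. bidentis span that the rule also required leaves room for such a level, so these counts are a description. The F. robusta LD mean lay between the F. bidentis trough and peak in 78 genes, below the trough in 17 and above the peak in 6. The 6 included trigger factor type chaperone AT5G55220, which helps new proteins fold, and alpha-amylase-like 2 AT1G76130, an enzyme family that cuts starch. The 17 included 2 histones and the aspartyl protease family member AT1G09750. A low level can hold a ratio with 1 RPM added below 2: the F. robusta LD mean was under 5 RPM in 17 members, under 2 RPM in 2 and under 1 RPM in 1, the GDSL lipase family gene AT2G19050 at 0.417 RPM. At the edges of the rule, sterol-4alpha-methyl oxidase 1-1 AT4G12110, AT5G57700 and AT5G62865 had an F. bidentis ratio of 4 and AT1G64220, just outside, had 3.96. Fructokinase-like 1 AT3G54090, AT3G48200 and AT2G04570 had an F. robusta ratio of 1.99, and AT1G23020, AT3G24460 and AT2G46950 were just outside at 2.

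Grouped by words in their descriptions, the members held 7 genes of transcription factors (6.93% of the members against 4.44% of the 10467), 7 of redox and stress defence (6.93% against 2.46%) and 5 of lipid metabolism (4.95% against 3.46%). The words for transcription factors also took in the CCCH zinc finger genes AT2G25900 and AT2G19810, whose type typically binds RNA. The redox genes include peroxidases AT3G49960, AT4G37520 and AT2G18980, which may share reads, so neither share is a firm excess. None of the 158 genes whose descriptions matched the words for photosynthesis and plastids was a member. These genes were only 1.51% of the 10467, so their absence is no firm deficit. The words also missed members whose proteins act in plastids, such as lipoxygenase 2 AT3G45140 and DEGP protease 2 AT2G47940. The regrouping below is by peak hour and role. Genes were named by their ratio, level or family rank. Picked outside those ranks, after their values had been seen, were the 4 MCM genes, AT5G08020, AT5G23420, AT4G17360, AT2G03140, AT5G49480, AT1G09090 and AT1G09830, and the relatives that are no members.

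Of the 19 dawn members, 5 had an average from LL2 on that was below their LD trough. The 2 nodulin-like Major Facilitator genes, AT2G34350 and AT1G18940, belong to a family of membrane proteins that move small solutes. On LD1, AT2G34350 read 29.5, 5, 2, 9, 4.5 and 14 RPM at ZT00, ZT04, ZT08, ZT12, ZT16 and ZT20 in F. bidentis, and on LD2 51, 4, 2, 9, 6.5 and 18 RPM. It was higher at ZT20 than at ZT16 and highest at ZT00 on both days. In F. robusta its 12 LD means ran from 5 to 10 RPM. After the last dark night it stood at 37 RPM at LL1 ZT00 and at 4 RPM at ZT04, and from LL1 ZT08 to LL3 ZT00 all 11 means lay between 1 and 2 RPM. No mean of the lit nights or of the next 2 subjective dawns came near the LD peaks. AT1G18940 ran in parallel, with 37 and 56 RPM at ZT00 of LD1 and LD2, 41.5 RPM at LL1 ZT00 and 3 RPM or less from LL1 ZT08 on. Both carry the same description and followed each other over the 25 F. bidentis means (Pearson's r = 0.98), so reads may be shared between them.

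Zinc finger genes of the CCCH type, whose proteins typically bind RNA, also read low from LL1 ZT12 on. AT2G19810 read 64.5 RPM at LD1 ZT00, 118.5 RPM at LD2 ZT00 and 87 RPM at LL1 ZT00 in F. bidentis, and from LL1 ZT12 on it stayed between 2.5 and 7 RPM. Those 10 means were all below its LD average trough of 16 RPM. F. robusta read from 4 to 18.5 RPM in LD. AT2G25900, also of the CCCH type, read 42 RPM at LD1 ZT00, 69 RPM at LD2 ZT00 and 46 RPM at LL1 ZT00, and between 1.5 and 5 RPM from LL1 ZT12. On LD1 both genes were still high at ZT04 (53.5 and 38 RPM) and on LD2 both were low there (14.5 and 8.5 RPM). Myb domain protein 77 AT3G50060, a transcription factor, read 17, 23.5 and 18 RPM at the 3 dawns after a dark night in F. bidentis and between 2.5 and 7 RPM from LL1 ZT12 on.

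Other dawn members lost the peak but settled inside their LD range. The alpha/beta-hydrolase AT2G03140 read 84, 118 and 114.5 RPM at ZT00 of LD1, LD2 and LL1, a trough of 9 RPM at ZT08 of LD1 and of LL1, and 24.5 to 37.5 RPM from LL2 ZT00 on. MATE efflux family member AT3G23550, of a family that exports organic compounds, read 26, 34 and 29.5 RPM at those dawns and 3.5 to 7.5 RPM from LL2 ZT00 on. FASCICLIN-like arabinogalactan-protein 11 AT5G03170, a cell surface glycoprotein, read 45, 44 and 41 RPM and then 11 to 16.5 RPM. Phosphate transporter 4;2 AT2G38060 was a member with the higher level in F. robusta: in F. bidentis it read 39 RPM at ZT00 and 5 RPM at ZT08 on LD1, against 24 to 58.5 RPM over the F. robusta LD means. Across the 19 dawn members, the median position of the LL2 to LL3 mean was 23.6% of the way from LD trough to LD peak on the log2 scale, and 5 of the 19 lay below the trough. The same median over all 101 members was 50.6%.

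**Figure D2:**
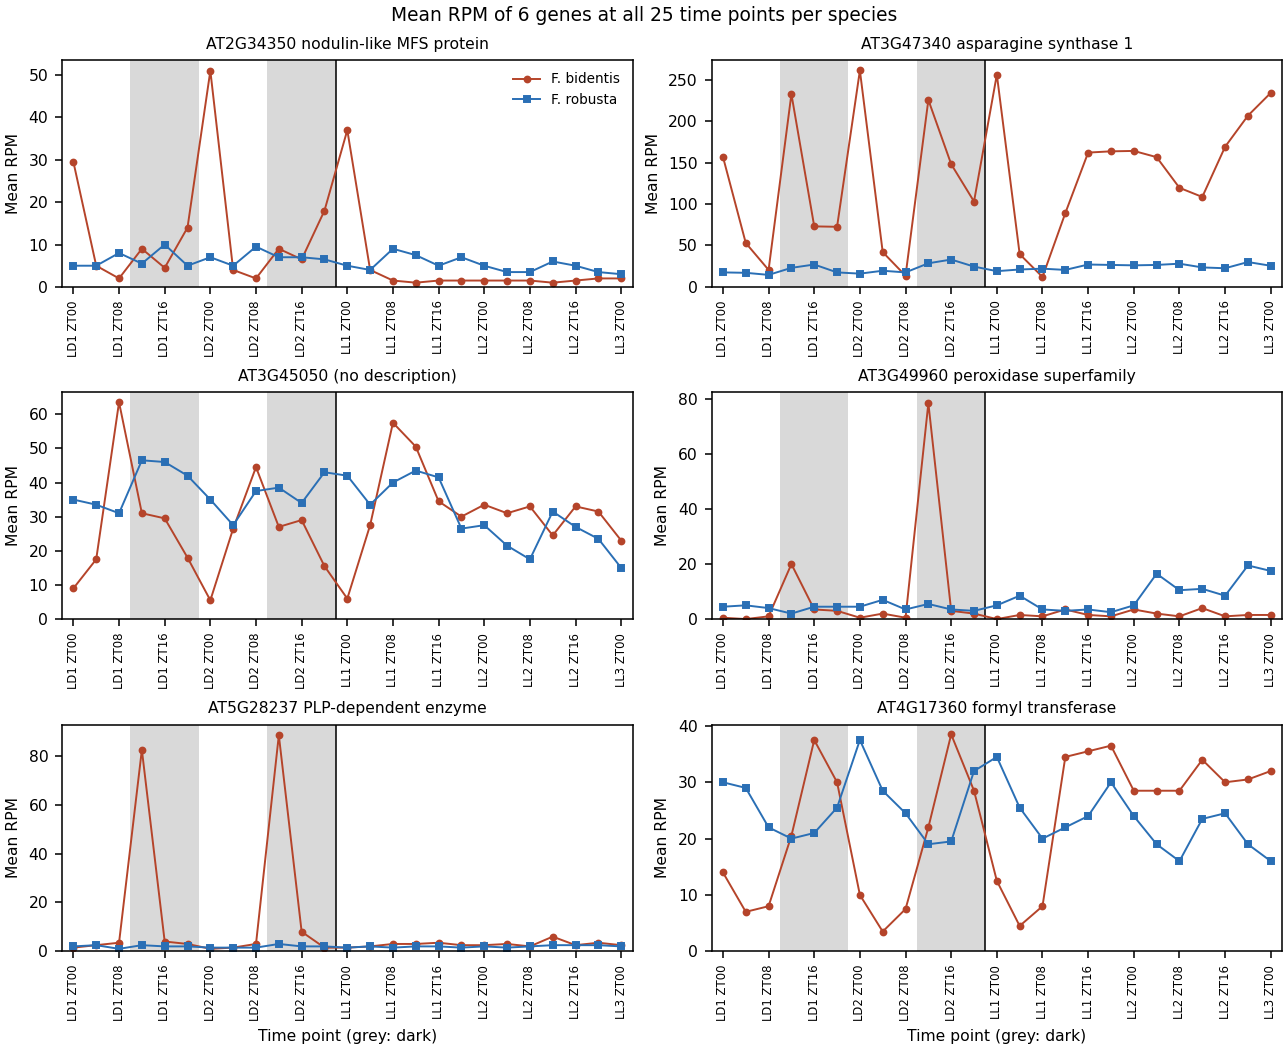
Mean RPM (y axis, from 0) of 6 genes at the 25 time points of F. bidentis (circles) and F. robusta (squares); grey bands mark dark hour points and the vertical line the start of LL. AT2G34350 stays at 1 to 2 RPM after LL1 ZT04, AT3G47340 stays at 89 RPM or more after LL1 ZT08, and the ZT12 peaks of AT3G49960 and AT5G28237 are seen in dark nights and not in lit ones.

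Members highest at ZT08 mostly kept that peak hour on LL1, as 16 of the 19 dawn members kept theirs. LL1 did not yet differ from LD in light at ZT00 to ZT08, whereas its ZT12 to ZT20 were lit, unlike in LD. AT3G45050, which has no description, read 9, 17.5, 63.5, 31, 29.5 and 18 RPM over LD1, and 5.5, 26.5, 44.5, 27, 29 and 15.5 RPM over LD2 in F. bidentis. On LL1 it read 6, 27.5, 57.5, 50.5, 34.5 and 30 RPM, and on LL2 between 24.5 and 33.5 RPM. F. robusta read between 27.5 and 46.5 RPM in LD with no shared hour of its highest value. The PLP-dependent transferase AT2G17630, of an enzyme family that includes aminotransferases, read 20 RPM at ZT00 and 134.5 RPM at ZT08 of LD2. On LL1 it read 149 RPM at ZT08 and 135, 122 and 126.5 RPM at the next 3 hour points, so no night trough was seen, and from LL2 on it read 78.5 to 146.5 RPM. In F. robusta its LD means ran from 60.5 to 139.5 RPM. 13 of the 14 members of this group were again highest at ZT08 on LL1, and 9 of 14 had an LL1 ratio of at least 4. Peroxidase AT5G05340 was the exception in LL2, with 2.5 RPM at ZT08 and 25.5 RPM at ZT12, a single mean with no neighbour above 7.5 RPM.

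ZT04 members rested on few means. AT2G07706 and AT2G01021, which have no description, reached 3522.5 and 2627 RPM at LD1 ZT04 in F. bidentis, against 19 and 24 RPM at LD2 ZT04. The remaining 10 LD means ran from 42.5 to 202 RPM and from 37.5 to 210.5 RPM. At LL2 ZT12 they stood at 811.5 and 559.5 RPM in F. bidentis, and at LL1 ZT12 at 993.5 and 312 RPM in F. robusta. Single time points therefore stood apart in both species and at different hours, and the LD rule caught one in F. bidentis. AT1G49700, a plant protein of unknown function, had its highest means at the same points: 99.5 RPM at LD1 ZT04 and 10 RPM at LL2 ZT12 in F. bidentis, and 16.5 RPM at LL1 ZT12 in F. robusta. The 2OG and Fe(II)-dependent oxygenase AT5G48020 read 820 RPM at LD1 ZT04 and 57 RPM at LD2 ZT04. For these 4 genes the word cycling does not describe the data, since the second LD day did not repeat the first: the LD2 ratios alone were 2.5, 2.26, 1.8 and 3.79. Only 3 of the 10 ZT04 members had the same peak hour on both days. Alpha-amylase-like 2 AT1G76130 was one with a repeated ZT04 peak, at 103.5 and 118 RPM, with 18 RPM at ZT16 on both days. Its F. robusta LD means ran from 60 to 196.5 RPM, above the F. bidentis trough at every hour. The HCO3- transporter family gene AT2G47160 read 572.5 and 390.5 RPM at ZT04 and 108.5 and 108 RPM at ZT12 in F. bidentis, so the trough in early dark was the repeated feature. At ZT12 of LL1, with the lights on, it read 203 RPM.

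Members highest at ZT12 held the steepest repeated peaks. The PLP-dependent enzyme AT5G28237 read 82.5 and 88.5 RPM at ZT12 of LD1 and LD2 in F. bidentis, and its other 10 LD means lay between 1 and 8 RPM. At ZT12 of LL1 it read 3 RPM and at ZT12 of LL2 6 RPM, and F. robusta stayed between 1 and 3 RPM at all 25 time points. A peak was thus seen at the first dark hour point and not at the same hour in light. Peroxidase AT3G49960, of a family of secreted enzymes that oxidise phenolic compounds, read 20 and 78.5 RPM at ZT12 of LD1 and LD2 and 3.5 RPM or less at the other 10 LD time points. AT4G37520 read 18.5 and 58 RPM there and AT2G18980 13.5 and 46 RPM. All 3 read between 2 and 4 RPM at ZT12 of LL1 and of LL2. In F. robusta these peroxidases ran from 2 to 8 RPM in LD and reached 19.5, 22.5 and 26.5 RPM in LL2 or at LL3 ZT00. These 3 share a description and followed each other closely (r of 0.97 to 0.98 over 25 F. bidentis means), so they may be readings of shared reads. This description is carried by 14 genes that reached 5 RPM on average, 4 of them members, and their median F. bidentis LD ratio was 2.34.

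Asparagine synthase 1 AT3G47340, which makes asparagine from aspartate and glutamine and is known in Arabidopsis for its rise in darkness, had 2 high points a day. It read 157, 53, 20.5, 232.5, 73 and 72.5 RPM over LD1 and 261, 42, 13.5, 225.5, 148 and 103 RPM over LD2 in F. bidentis. The level was lowest after 8 h of light and highest in the first dark hour point and at dawn. On LL1 it read 256 RPM at ZT00 and 12 RPM at ZT08, and then 89, 162 and 163.5 RPM through the lit night. The 7 means from LL2 ZT00 to LL3 ZT00 lay between 108.5 and 234 RPM, so the daytime trough was not seen again. F. robusta stayed between 14.5 and 33 RPM at all 25 time points. Asparagine synthetase 3 AT5G10240 had LD ratios of 1.74 and 1.55 in the C4 and the C3 species, and AT2G03667, described as of the same enzyme family, had 2.35 and 4.26.

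Genes of glycosyl hydrolase family 81, enzymes that cut beta-1,3-glucans, were also highest at ZT12. AT5G15870 read 9, 27.5, 31, 59.5, 40.5 and 33.5 RPM over LD1 and 6.5, 15, 31, 98, 34 and 23 RPM over LD2 in F. bidentis. Each mean from ZT00 to ZT12 was higher than the one before it on both days. In LL1 it read 63.5 and 73 RPM at ZT12 and ZT16, and in LL2 75.5 RPM at ZT04 and 86 RPM at ZT12 with 30 RPM between them. F. robusta ran from 14.5 to 26 RPM in LD. AT1G18310 moved with it (r = 0.99), and reads may be shared. Lipoxygenase 2 AT3G45140, a plastid enzyme on the route to jasmonate, read 855.5 and 826 RPM at ZT12 in F. bidentis, with a further high point of 826.5 and 479 RPM at ZT04. At ZT12 of LL1 it read 153 RPM, and all later means were between 94.5 and 226.5 RPM. F. robusta read 234.5 to 514.5 RPM in LD. The tetratricopeptide repeat protein AT3G52140 read 709 and 714 RPM at ZT12 and 302 and 375 RPM at ZT16, against 183.5 RPM at ZT12 of LL1. In F. robusta it ran from 99 to 259.5 RPM, with 210.5 and 259.5 RPM at ZT12 and ZT16 of LD2. Trigger factor AT5G55220 read 298.5 and 280.5 RPM at ZT12 and 80.5 and 61.5 RPM at ZT00 in F. bidentis. DEGP protease 2 AT2G47940, which degrades proteins in the chloroplast, read 138 and 125 RPM at ZT12 and 34 and 28 RPM at ZT00. Both kept this order in LL1, with 246 against 75.5 RPM and 102 against 36 RPM.

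Among the 37 ZT12 members, the lit LL1 ZT12 mean was lower than the LD average at that hour by at least 1 log2 unit in 17, and the median difference over the 37 was -0.99. Of the 926 genes with an F. bidentis ratio of at least 4 and any F. robusta ratio, 294 also peaked at ZT12. The lit mean was lower by at least 1 log2 unit in 133 of these 294, with a median of -0.91. The members were therefore near the wider set in these respects, and also in the share that peaked at ZT12 (37 of 101 against 294 of 926). Formyl transferase AT4G17360, highest at ZT16, differed: it read 37.5 and 38.5 RPM at ZT16 and 7 and 3.5 RPM at ZT04 in LD, then 34.5, 35.5 and 36.5 RPM at ZT12, ZT16 and ZT20 of LL1, and 28.5 to 34 RPM from LL2 ZT00 on. Its F. robusta LD means ran from 19 to 37.5 RPM, with the highest at ZT00 of LD2. Ca2+-binding protein 1 AT5G49480, highest at ZT20, read 62.5 and 54 RPM at that hour and 6.5 and 5.5 RPM at ZT08 of LD1 and LD2, then 52 RPM at ZT20 of LL1 and 33 to 53.5 RPM in LL2. DUF547 protein AT2G23700 read 6 and 7 RPM at ZT04 in LD and 29.5 to 39.5 RPM from LL1 ZT12 on, a level at or above its LD average peak of 29.3 RPM.

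8 of the 16 ZT16 members have descriptions that point to DNA replication or chromatin. This grouping was made after the values had been seen. The description family of DNA, chromatin and cell cycle holds 2 members, the histones, which is 1.98% of the 101 against 3.53% of the 10467. Its words did not match the MCM genes, AT5G08020 or AT5G23420, so that share leaves them out. 4 code for minichromosome maintenance (MCM) proteins, subunits of the helicase that opens DNA for copying (AT1G44900, AT5G44635, AT2G16440, AT2G07690). RPA70-kDa subunit B AT5G08020 binds the single strands so exposed, high-mobility group box 6 AT5G23420 is a DNA-binding protein, and AT3G27360 and AT5G65350 are histones, the spools on which new DNA is wound. In F. bidentis, AT1G44900 read 32, 30, 23.5, 6.5, 65 and 6 RPM over LD1 and 15, 24.5, 21.5, 8, 24 and 43.5 RPM over LD2. The maximum came at ZT16 on the first day and at ZT20 on the second, and ZT20 was among the lowest points of the first. Histone AT3G27360 read 419, 226, 449.5, 140.5, 833 and 82 RPM over LD1 and 168, 124, 223, 148.5, 376.5 and 438.5 RPM over LD2. AT5G65350 followed AT3G27360 over the 25 F. bidentis means (r = 0.996), so reads may be shared between them. All 8 had their highest mean at ZT16 on LD1 and at ZT20 on LD2, as 4.37% of the 10467 genes did, and all 8 were lost from the set when the LD1 ZT16 mean was left out. These genes varied together from one time point to the next, with no daily pattern that both LD days repeat except a low value at ZT12.

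**Figure D3:**
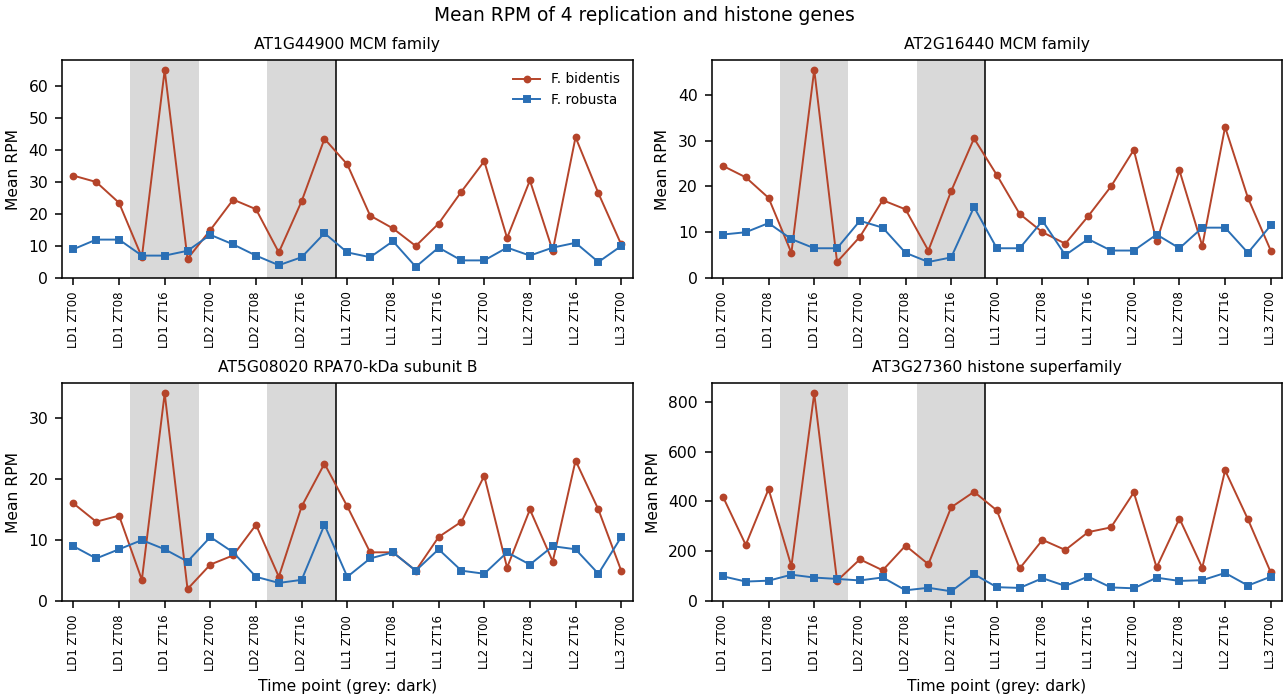
Mean RPM (y axis, from 0) of AT1G44900, AT2G16440, AT5G08020 and AT3G27360 at the 25 time points of both species, drawn as in the plot of 6 profiles. The 4 genes share their peaks in F. bidentis, at ZT16 on LD1, at ZT20 on LD2 and at ZT00 and ZT16 on LL2, and F. robusta stays lower at most points.

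In constant light this variation went on. AT2G16440 read 28, 8, 23.5, 7, 33 and 17.5 RPM over LL2, and the MCM genes AT1G44900 and AT2G16440 and histone AT5G65350 were 3 of the 8 members with an LL2 ratio of at least 4 in F. bidentis (0.736% of all 10467 genes). Relatives were partly alike. Of the 7 MCM family genes that reached 5 RPM, 6 were highest at ZT16 on LD1 and at ZT20 on LD2, and AT1G67440 was highest at ZT20 and then at ZT16, with ratios of 2.60 and 2.55. Of 28 core and linker histone genes, 20 had ZT16 and then ZT20, 6 had ZT16 on both days and 2 had ZT16 and then ZT08. The histones' median ratios were 2.91 (F. bidentis) and 1.51 (F. robusta). Of the 28, 27 had an F. robusta ratio under 2, as did 6048 of the 10467 genes. In F. bidentis 2 of 28 reached 4, as did 926 of the 10467, so the 2 are no excess. Whether histone genes share reads was not tested. Of 9 further replication and cell cycle genes, which include the member AT5G08020, 5 had ZT16 and then ZT20. Among these were the cell cycle kinases CDKB2;2 AT1G20930 (LD ratios of 4.91 and 2.73) and CDKB1;2 AT2G38620 (3.26 and 2.33), Cyclin B1;4 AT2G26760 (4.29 and 2.30) and the DNA clamp PCNA1 AT1G07370 (2.60 and 1.26). The other 4, replication factor C subunits AT1G63160, AT1G77470 and AT5G22010 and replication protein A 1A AT2G06510, had F. bidentis ratios of 1.71 to 2.14 and other peak hours on LD2. MCM gene AT4G02060 had ratios of 5.32 and 2.04 and AT5G46280 had 3.94 and 1.73, so each missed the rule narrowly at one of its thresholds. Cyclin B1;1, the one of 3 genes on the dividing-cell marker list that was found in the table, read 1 to 9.5 RPM in F. bidentis in LD and 0.5 to 3 RPM in F. robusta. The part that a changing share of dividing cells in the harvested leaves has in these values was not tested, and in bulk leaf RNA fewer cells of a type and less RNA per cell cannot be told apart.

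**Figure D4:**
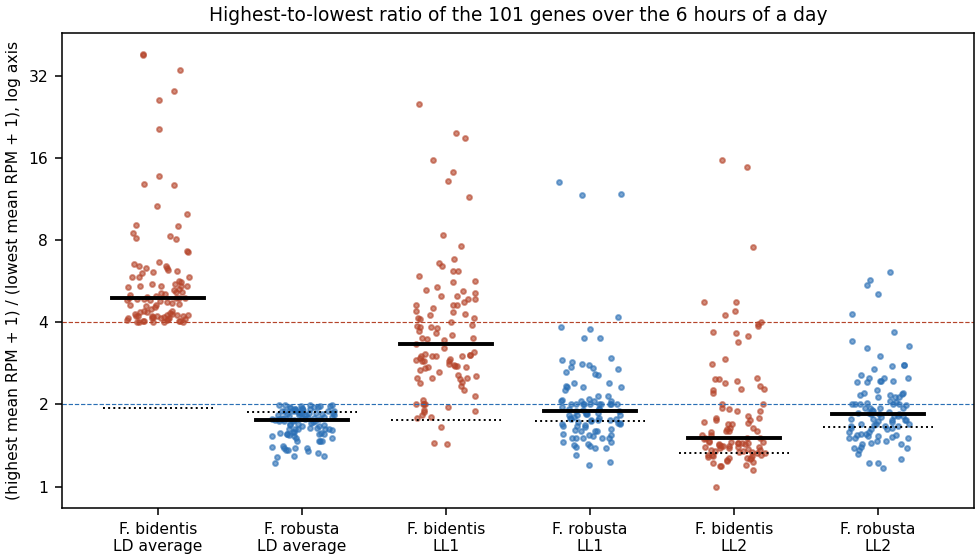
Ratio of highest to lowest mean RPM over the 6 hours of a day (1 RPM added, log axis) for the 101 genes in LD, where the rule set it (dashed lines at 4 and 2), and on LL1 and LL2. Thick bars are the members' medians and dotted bars those of the 10467 genes; the member medians are 3.32 and 1.89 on LL1 and 1.5 and 1.85 on LL2.

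In constant light the ratios, though not the mean levels, were outside the rule. On LL1, 38 of 101 members had a ratio of at least 4 in F. bidentis (6.02% of the 10467 genes), and 57 had a ratio under 2 in F. robusta (66.3% of the 10467), where 4 reached a ratio of at least 4 (6.72%). Both together were met by 24 members, against 0.726% of all genes and 57 of the 926 genes with the F. bidentis LD ratio. The F. bidentis ratio was the higher of the pair in 90 of 101 members and in 50.6% of all genes. The 24 included 8 dawn genes, 6 ZT08 genes and 7 ZT12 genes, among them asparagine synthase 1, both family 81 hydrolases, respiratory burst oxidase homolog B AT1G09090, an enzyme that makes superoxide, and GAR synthetase AT1G09830 of purine synthesis. With the 5 RPM minimum set on the LD means alone, the rule kept 102 genes, 99 of them among the 101, and 25 met both limits on LL1. LL1 ZT00 to ZT08 follow a dark night, so LL1 is not free of the light-dark cycle. Of the 29 members whose LD peak and trough both fell at lit hours, 26 were higher by at least 1 log2 unit at the peak hour on LL1 in F. bidentis. F. robusta, chosen as flat in LD, showed this in 1 of 29. LL1 did not yet differ from LD in light at these hours, so both counts describe LD-like hours and not constant light. No share of other genes is set beside them.

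By LL2 the contrast was gone in most members. The median F. bidentis ratio was 1.5, lower than the F. robusta median of 1.85, and over all 10467 genes the medians stood in the same order, at 1.32 and 1.66. 8 members had an LL2 ratio of at least 4 in F. bidentis (0.736% of all genes) and 5 in F. robusta (1.52%). In AT2G07706, AT2G01021, AT1G49700, AT1G30100 and AT5G05340 the F. bidentis ratio rested on the single LL2 ZT12 mean. The rest of the 8 were AT1G44900, AT2G16440 and AT5G65350 of the replication and chromatin group. AT2G16440 alone met both limits on LL2, where 0.0860% of all genes did. At its LD peak hour F. bidentis was higher than at its LD trough hour by at least 1 log2 unit in 67 members on LL1 and in 14 on LL2. Both counts stand without the share among other genes and are a description only. The 14 included all 8 replication and chromatin members, at 1.68 to 2.24 log2 units. Their LD peak hour was not the same on LD1 and LD2, so the count of 14 does not show a lasting daily pattern. None of the 29 members with lit peak and trough hours was among those 14.

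Rhythm was then tested with limma over the 13 LL means of each species, as a cosine and sine of 24 h beside a linear trend, with p-values adjusted by the Benjamini-Hochberg method over 13563 genes. No gene, and so no member, was called rhythmic at an adjusted p of 0.05 in F. bidentis (0.00% of genes tested), nor in F. robusta (0.00%) or in the difference between the species (0.00%). At an unadjusted p under 0.05 there were 30 members in F. bidentis (29.7%, against 19.3% of genes tested), 23 in F. robusta (22.8% against 13.2%) and 17 for the difference (16.8% against 7.62%). The fitted peak-to-trough span had a median of 0.78 log2 units over the members in F. bidentis, against 0.36 over all genes tested. In F. robusta the medians were 0.44 and 0.38. The LL means tested include LL1 ZT00 to ZT08, which followed a dark night, and the members were chosen for their LD swing. Their shares and spans are thus partly fixed by the choice and are a description. The lowest adjusted p among the members was 0.246, reached by asparagine synthase 1 with a span of 1.99 in F. bidentis and by others. Subjective night against subjective day, tested in the same way, gave no call in either species (0.00% each) or for the difference (0.00%). At an unadjusted p under 0.05 that test gave 5 members in F. bidentis (4.95%, against 10.8% of genes tested), 23 in F. robusta (22.8% against 9.82%) and 4 for the difference (3.96% against 7.79%). The unadjusted counts for F. robusta and for the difference include the F. robusta time points that stood apart and are not given without them. Of those points, LL2 ZT04, LL2 ZT08 and LL3 ZT00 are subjective day. With 13 means per species these tests have few points, and a missing call does not show that a gene was steady.

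Mean level in LL differed between the species for many members, about as often as for genes in general. limma's comparison at matched time points called 73 of 101 members at an adjusted p of 0.05, where 67.8% of the 13563 genes were called. F. bidentis was higher in 38 (26% of genes tested) and lower in 35 (41.8%). The median difference was 0.08 log2 units over the members and -0.13 over all genes. With TMM factors the median over all genes moved by 0.11 to -0.02, the members' median was 0.19, and 43 members were called higher and 29 lower. Without the 4 F. robusta time points that stood apart, 41 were called higher and 29 lower. F. bidentis was the higher species in 38.3% of all called genes, in 47.7% with TMM factors and in 49.1% without those points, so genes in general shifted as well. The 5 RPM minimum used LL means: 7 members averaged under 5 RPM over the 25 F. bidentis means and 14 over the 25 F. robusta means, so the other species carried them over it, and a difference in level was partly fixed by the choice. With at least 5 RPM required over the 12 LD means of each species, 82 of the 101 remained, of which 28 were called higher in F. bidentis (24.5% of the 9779 genes with that minimum) and 30 lower (42.1%). These time points are successive samples of one series and not replicates, so the p-values measure the spread of the difference over time.

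**Figure D5:**
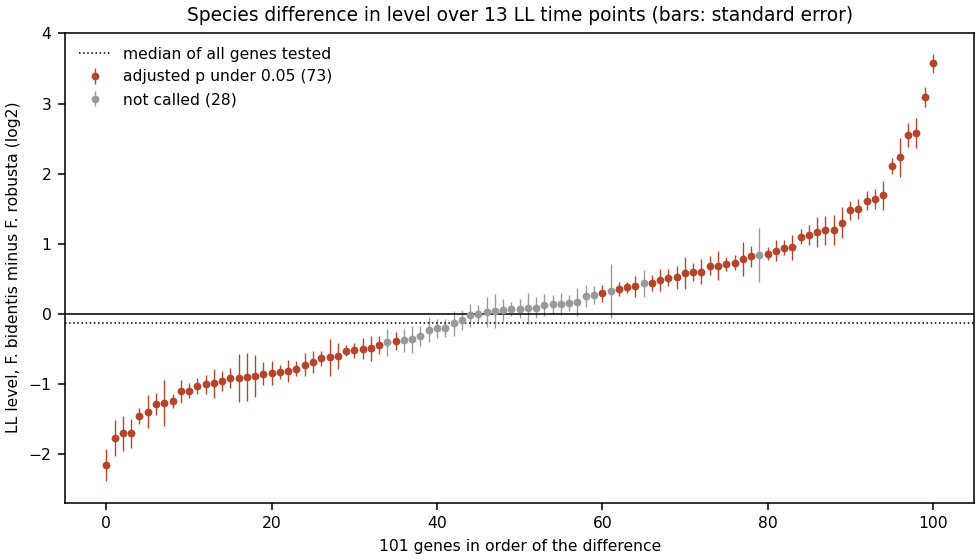
Species difference in LL level, F. bidentis minus F. robusta, in log2 units (y axis) for the 101 genes in order of that difference, with standard errors over 13 matched time points; coloured points are the 73 called genes, the dotted line the median of all genes tested. The ends are AT4G37520 at -2.15 and AT1G09750 at 3.57.

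The largest differences with F. bidentis higher were in the aspartyl protease AT1G09750, the lipase AT2G19050, histone AT5G65350, AT2G23700 and asparagine synthase 1. AT1G09750 ranged over LL from 24.5 to 97.5 RPM (median 55.5) in F. bidentis and from 2 to 6.5 RPM (median 3.5) in F. robusta, and the groups did not overlap. Its difference was 3.57 ± 0.14 (SE) log2 units with an adjusted p of 9.57e-14 from limma. Histone AT5G65350 ranged from 27 to 127 RPM against 5.5 to 14.5 RPM, a difference of 2.59 ± 0.21. Both were higher in F. bidentis at 13 of 13 time points. AT2G19050, with 4 to 14.5 RPM against 0 to 1.5 RPM, and AT2G23700, with 6.5 to 39.5 RPM against 2.5 to 5.5 RPM, passed the 5 RPM minimum through F. bidentis only, and their ranges are a description. Asparagine synthase 1 ranged from 12 to 256 RPM (median 162) against 19 to 30 RPM (median 25.5), a difference of 2.23 ± 0.27, with LL1 ZT08 the one time point at which F. robusta was higher. All 8 replication and chromatin members were called higher in F. bidentis (26% of genes tested), but these calls are not 8 separate results. The genes were grouped after their values had been seen and varied together. AT5G23420 passed the 5 RPM minimum through F. bidentis only, so its level is a description. The smallest difference was 0.59 ± 0.23 in RPA70-kDa subunit B AT5G08020 (adjusted p = 0.0321 from limma). That call of AT5G08020 is among the weaker ones, and F. bidentis was higher at 8 of 13 time points.

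F. robusta was higher by most in the 3 parallel peroxidases, phosphate transporter 4;2 and alpha-amylase-like 2. Peroxidase AT3G49960 ranged over LL from 0 to 4 RPM (median 1.5) in F. bidentis and from 2.5 to 19.5 RPM (median 8.5) in F. robusta, and the ranges overlapped between 2.5 and 4 RPM. The difference was -1.70 ± 0.25 log2 units (adjusted p = 1.24e-05 from limma), and -1.23 without the 4 F. robusta time points that stood apart, which hold its 3 highest F. robusta values. AT4G37520, with 0 to 2.5 RPM against 2.5 to 22.5 RPM, and AT2G18980 averaged under 5 RPM in F. bidentis and passed the minimum through F. robusta, so their levels are a description. Phosphate transporter 4;2 AT2G38060 ranged from 4.5 to 30 RPM against 28.5 to 179.5 RPM, a difference of -1.70 ± 0.21, or -1.38 without those points. Alpha-amylase-like 2 AT1G76130 ranged from 40.5 to 101.5 RPM against 94 to 268.5 RPM, a difference of -1.45 ± 0.11, and F. robusta was higher at all 13 time points. Of the dawn zinc finger genes, AT2G19810 differed by -0.91 ± 0.34 and AT2G25900 by -0.61 ± 0.26, and both calls were lost without those points (adjusted p = 0.317 and 0.497 from limma).

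Several members with steep LD peaks had small or uncalled differences in LL level. The tetratricopeptide repeat protein AT3G52140 ranged from 122 to 199 RPM against 96 to 147 RPM over LL, a difference of 0.38 ± 0.09. AT5G28237, which passed the minimum through F. bidentis only, ranged from 1.5 to 6 RPM against 1.5 to 2.5 RPM. Formyl transferase AT4G17360 differed by 0.04 ± 0.24 and was not called (adjusted p = 0.885 from limma). For AT3G52140 and AT5G28237 the LL values of F. bidentis lay near its LD daytime values, and the 2 dark ZT12 means stood above every LL mean of both species.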

How the data were processed

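RNA of mature leaves from 100 libraries was sequenced in one direction over 100 bp, 12 libraries to a lane, per the labels' protocols. The submitters' processing notes name CASAVA and TAIR10 without roles; for the aligner and the matching of Flaveria reads to Arabidopsis genes, nothing is stated in those sources. RPM values are deposited, which the authors scaled per library and averaged per time point; the 50 columns of means, which sum to between 999417.5 and 1000090, were used. Another 200 columns hold per-library values under names that match no sample title and were not used, so depth, counts and replicate spread are unknown and no interval is given for a single mean.

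The members and gene lists were chosen with earlier results of these data known. Named genes were the 12 largest F. bidentis ratios, the 8 highest F. bidentis peaks, the 8 highest F. robusta means, the 5 largest called LL level differences in each direction, up to 4 genes of each of 19 description families with 3 or more members, and the 3 genes on each side of the thresholds. A rule for called rhythm differences or clock genes named none. 17834 of the 21869 identifiers carry a description.

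limma 3.58.1 (R 4.3.3; eBayes, trend and robust) was run on the LL values after the log2(RPM + 1) transform, over 13563 genes averaging 1 RPM or more, and p-values were adjusted over all of them. Fold changes are on the log2(RPM + 1) scale, which understates the change of low genes. The tests were tried on simulated data with known changes. Alternatives were TMM scaling, pseudocounts of 0.1 and 5, other RPM minimums, no trend, and leaving out time points. Other steps used Python 3.11.15 with pandas 2.3.3.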

Additional observations from a re-analysis of the deposited data

How the results depend on the processing

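The number of genes that meet the rule was 61 with 5 RPM added in the ratio (40 of them among the 101), 106 with 0.1 RPM (78), 100 with TMM scaling (48), 100 on LD1 alone (41), 109 on LD2 alone (48) and 82 where the LD means of each species had to average 5 RPM or more (82). With one hour left out it ran from 63 (without ZT12; 55 shared) to 108, and with one LD mean left out from 80 (without F. robusta LD1 ZT12) to 133 (without F. bidentis LD1 ZT00). The number is thus steadier than the identity of the genes; the cause was not tested. The count of 24 members that met both limits on LL1 was 23 with TMM scaling and 20 with an LD mean of at least 5 RPM required in F. robusta or in both species. Members called for LL level numbered 68 to 80 with one time point left out and 70 to 73 under the other settings of the test; of the 82 and 102 genes kept by minimums on LD means, 58 and 75 were called. No member was called in any of the 6 rhythm and night tests under any alternative run; without LL2 ZT08, 15 other genes were called rhythmic in F. bidentis. Among 36 named level differences and 18 alternatives, 619 of 648 values kept their call, 29 lost it, in 7 genes, and 0 changed sign. The 7 are AT2G07706, AT2G34350, AT2G47160, AT2G25900, AT2G19810, AT1G30100 and AT3G54090. No paired analysis was possible because the columns of means carry no replicate numbers. The 0.5 RPM step of the means limits ratios of genes with troughs near 1 RPM.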
